A study of Mus musculus with 12 samples.

Results

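Transcripts of 9 genes of blood coagulation and plasminogen activation were measured in mouse bone marrow macrophages with and without miR-210. The genes were F3, F7, F10, Tfpi, Thbd, F13a1, Plau, Plaur and Serpinb2. They were picked by name, with earlier results of these libraries known, and are 9 of the 56941 Ensembl genes in the count tables. Because these same comparisons had been seen when the genes were picked, the number of them that changed is given as a description, beside the share of all tested genes that changed.

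Monocytes were isolated from the bone marrow of C57BL/6J mice by removing other cells with magnetic particles, and were differentiated for 7 days in 20% FBS and 30% medium conditioned by L929 cells, a fibroblast line that supplies M-CSF. The resulting M0 macrophages came from wild-type mice (WT M0) or from mice lacking miR-210 (miR-210 KO M0). M2 macrophages were obtained with 20 ng/mL IL-4 for 72 h (WT M2 and miR-210 KO M2), and control wells received no IL-4. Each of the 4 groups had 3 libraries. The deletion came from a cross of floxed miR-210 mice with Gata-1 Cre mice, and KO and WT animals were bred from heterozygous parents. Age and sex were not given in the sources used here, nor whether the 3 libraries of a group came from separate mice, so p-values measure only the spread between these libraries. The labels give every group its own batch, so that batch and group cannot be told apart.

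Coagulation starts when tissue factor, a membrane protein encoded by F3, binds factor VIIa and the complex activates factor X. Factor Xa then forms thrombin, which cleaves fibrinogen to fibrin, and factor XIII cross-links the fibrin. TFPI blocks the tissue factor complex, and thrombomodulin turns thrombin from clotting to the activation of protein C. Fibrin is removed by plasmin, which urokinase (Plau) releases from plasminogen at its receptor uPAR (Plaur), and PAI-2 (Serpinb2) inhibits urokinase. Factors VII and X in plasma come mainly from the liver, while macrophages are known to make tissue factor, the factor XIII A subunit and the urokinase system.

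The libraries held between 7930525 and 10167695 counts. Mir210 had 0 counts in the 6 miR-210 KO libraries and between 1 and 5 counts in each WT library; the precursor was thus near the counting limit in WT. The 6 macrophage markers, which included Adgre1 and Cd68, summed to between 3320 and 4010 CPM in every library. CPM is the count scaled to the library's size by the TMM method. The sum did not show changes of single markers. In WT M0 and WT M2 the means were 498 and 63.3 CPM for Fcgr1, 202 and 79.9 for Mertk, and 278 and 425 for Itgam. In miR-210 KO cells these were 334 and 55.3, 184 and 98.8, and 345 and 397. The WT means were 1020 and 857 for Adgre1, 1040 and 1150 for Cd68, and 815 and 847 for Csf1r. Arg1, an enzyme induced by IL-4, rose with IL-4 by 5.53 on the log2 scale in WT and by 4.71 in miR-210 KO cells. At rest its mean was higher without miR-210 (73.5 CPM, against 41 for WT M0, edgeR's quasi-likelihood test, BH-adjusted p = 0.034). After IL-4 the Arg1 means were 1930 CPM without miR-210 and 1880 for WT, and overlapped. Mrc1 rose by 0.62 in WT and by 0.89 in miR-210 KO cells. Retnla (14.9 and 14.8) and Chil3 (13.8 and 16.7) rose from at most 3 counts in any M0 library. With so few counts at rest, these sizes cannot be compared between genotypes. After IL-4 the Chil3 mean was lower without miR-210 (1460 CPM, against 1740 for WT), without overlap. The log2 difference of -0.24 (edgeR's quasi-likelihood test, adjusted p = 0.018) was too small for a call. Retnla overlapped (379 CPM without miR-210, 430 for WT). Mrc1 was higher without miR-210 (3050 CPM, 2620 for WT) but was not called. Of the cell types that are known for these 9 genes, the 5 hepatocyte markers summed to at most 0.111 CPM in any library. The 6 endothelial markers summed to between 35 and 49.5 CPM in M0 and to between 148 and 190 CPM in M2. Most of that sum in M2 was Vwf, and most of it in M0 was Kdr, which was at 31.6 CPM in WT M0 and at 9.64 CPM in WT M2 on average (21.8 and 10.4 in miR-210 KO cells). Pecam1 was at 1.41 CPM in WT M0 and at 7.38 CPM in WT M2 (2.58 and 7.83 in miR-210 KO cells). Tek and Emcn had at most 1 count in any library and Cdh5 at most 20. The 7 megakaryocyte and platelet markers summed to between 347 and 522 CPM, mostly Pf4. Of the others, Ppbp was at 2.85 CPM in WT M0, 6.66 in miR-210 KO M0, 9.7 in WT M2 and 8.93 in miR-210 KO M2 on average, Itga2b had at most 25 counts in any library, Gp5 at most 7, Gp1ba at most 3, Gp9 at most 1 and Gp1bb 0. The 5 dendritic cell markers summed to at most 0.95 CPM in M0 and to between 10.1 and 18 CPM in M2, mostly Zbtb46, with at most 2 counts of Flt3 in any library. Fibroblast, neutrophil, lymphocyte and mast cell markers summed to at most 2.49, 5.36, 0.247 and 0.21 CPM. The part of cells expressing Vwf, Pecam1, Kdr, Ppbp or Zbtb46 in the differences below was not tested. Fewer cells of a type and less RNA per cell cannot be told apart in these bulk libraries.

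The deleted microRNA is shown first, because its seed (bases 2 to 8, in capitals) is the part that pairs with target transcripts. The mature sequences of both arms are from RefSeq, and 2 of 2 were found.
mmu-miR-210-3p: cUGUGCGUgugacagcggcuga
mmu-miR-210-5p: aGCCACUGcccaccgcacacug
The 7 bases that pair with the seed of the 3p arm (ACGCACA) occurred in the 3′ UTR of 726 of 20854 protein-coding genes (3.48%). Those of the 5p arm (CAGTGGC) occurred in 2828 (13.6%). Of the 9 genes, 0 held either match in the 3′ UTR of the canonical transcript. This describes these 7 letters only and does not bear on other kinds of pairing.

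The transcript levels of the 9 genes differed widely at rest. Per kilobase of exon, Plau was highest in WT M0, with a mean of 51.1 CPM per kb, followed by F13a1 with 16.8, and the ranges of these genes over 3 libraries were apart. Plaur, Tfpi and Thbd came next with 6.44, 5.69 and 5.6 CPM per kb, and neighbours in this order overlapped. Serpinb2 (1.38), F10 (0.811), F7 (0.427) and F3 (0.0684) were lowest, in that order, with ranges apart. The resting cells thus held the urokinase transcript at the highest level of the set and tissue factor at the lowest. After IL-4 the order was changed, and F10 was highest in WT M2 with a mean of 114 CPM per kb, then came F7 with 51.3, Plau with 43.4 and Plaur with 23.1, all with ranges apart. Serpinb2 (7.02), F13a1 (6.48), Tfpi (6.15) and F3 (5.45) followed and overlapped with their neighbours, and Thbd (2.77) was lowest. In miR-210 KO M2 the first 4 genes were the same, F10 with 122, F7 with 47.4, Plau with 46.7 and Plaur with 21.5 CPM per kb, but the ranges of F7 and Plau overlapped there, and F3 (3) was last with a range that overlapped that of Thbd (3.11).

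**Figure D1:**
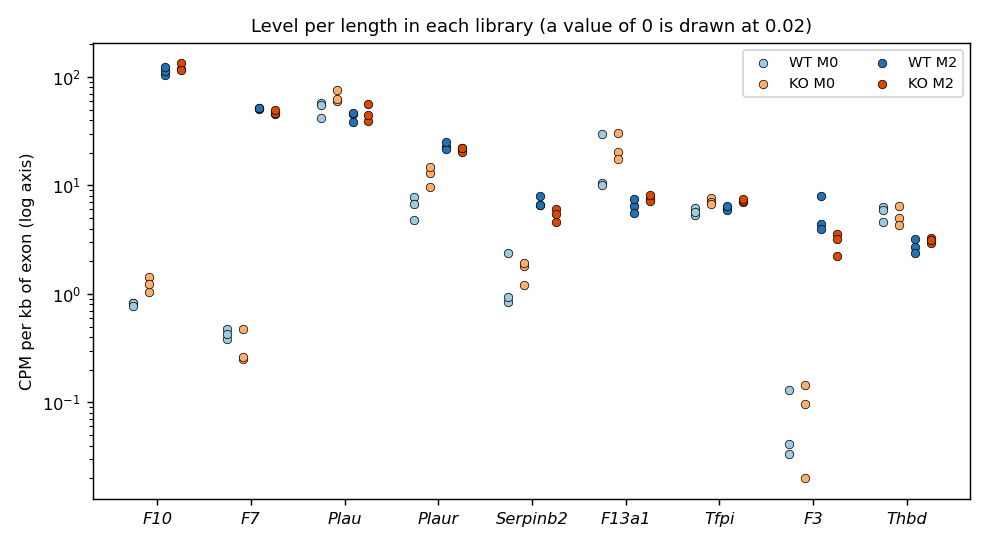
Level per length of the 9 genes in each of the 12 libraries, as TMM-scaled CPM per kilobase of merged exons on a log axis, with genes ordered by their mean in WT M2. F10 and F7 lay below 2 in every M0 library and above 45 in every M2 library, whereas Tfpi stayed between 5.31 and 7.63 in all 12.

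The genes that start coagulation showed the largest changes with IL-4. Counts of F3 were 1, 1 and 4 in WT M0, against 116, 118 and 199 after IL-4. Without miR-210 they were 4, 0 and 3 at rest and 90, 66 and 80 after IL-4. Tissue factor was thus close to the counting limit in all 6 M0 libraries and well above it in all 6 M2 libraries. With so few counts at rest, the ratio of summed normalized counts was 75.9 in WT (95% counting interval 34.6 to 208) and 38.7 in miR-210 KO cells (18.5 to 97.4). The fitted log2 change was 6.18 (SE 0.46, edgeR's quasi-likelihood test, BH-adjusted p = 1.2e-07) in WT and 5.21 (SE 0.45, adjusted p = 1.3e-06) in miR-210 KO cells.

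F7, which encodes the protease that pairs with tissue factor, was counted 7, 7 and 8 times in WT M0, and 812, 926 and 793 times after IL-4. In miR-210 KO cells the counts were 8, 5 and 5 in M0 and 702, 845 and 757 in M2. The WT M2 libraries lay within 1.03-fold of each other (95.5, 97.4 and 98 CPM), the tightest group of the gene. The ratio of summed normalized counts of M2 to M0 was 121 in WT (95% counting interval 79.7 to 193) and 147 in miR-210 KO cells (92.8 to 249). The log2 changes were 6.9 (SE 0.12, adjusted p = 1.5e-13) and 7.17 (SE 0.16, adjusted p = 1.5e-11).

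F10, whose product is activated by the tissue factor and factor VIIa complex, was at 2.28, 2.27 and 2.13 CPM in WT M0 and at 285, 314 and 341 CPM in WT M2. It was at 3.89, 2.85 and 3.38 CPM in miR-210 KO M0 and at 324, 365 and 316 CPM in miR-210 KO M2. All M2 libraries of both genotypes were above all M0 libraries. F10 rose by 7.14 on the log2 scale in WT (SE 0.12, adjusted p = 7.3e-14) and by 6.64 in miR-210 KO cells (SE 0.13, adjusted p = 2.6e-12), the sixth smallest p of all genes tested in either genotype. F7 and F10 are neighbours on the same strand of chromosome 8, F7 at chr8:13076002-13085809 and F10 at chr8:13087293-13106676 (GRCm39), with 1483 bases between them. Per length, F10 was between 1.77 and 2.16 times F7 in the WT M0 libraries and between 2.06 and 2.39 times in WT M2, so that the ranges of this ratio overlapped between the states while both genes rose. In miR-210 KO cells the ratio was between 3.02 and 4.68 in M0, where F7 had 5 to 8 counts, and between 2.3 and 2.85 in M2. These ranges did not overlap. F7 had only 7 or 8 counts in the WT M0 libraries, so the ratio at rest was imprecise in both genotypes. Hepatocyte markers were at or near 0 in the same libraries, as given above.

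Of the anticoagulant genes among the 9, Tfpi was not called and Thbd fell. Tfpi, at 32.6, 37.6 and 34.6 CPM in WT M0 and 37.6, 36.2 and 39.5 CPM in WT M2, overlapped between the states. It was at 46.9, 43 and 41.5 CPM in miR-210 KO M0 and at 43.2, 44.5 and 45.6 CPM in miR-210 KO M2. The log2 difference between M2 and M0 was 0.11 in WT (95% interval -0.07 to 0.29, adjusted p = 0.29) and 0.02 in miR-210 KO cells (-0.17 to 0.21, adjusted p = 0.88), so changes outside these intervals were not seen. Per length, F3 was between 0.00544 and 0.0232 times Tfpi in WT M0 and between 0.679 and 1.23 times in WT M2. F7 was between 0.0624 and 0.0885 times Tfpi in WT M0 and between 8.06 and 8.74 times in WT M2. In miR-210 KO M2 both ratios were lower than in any WT M2 library, between 0.307 and 0.506 for F3 and between 6.45 and 6.74 for F7. These ratios were computed after the values had been seen and were not tested.

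Thbd, the gene of thrombomodulin, was at 46.3, 33.3 and 43.2 CPM in WT M0 and at 19.9, 23.2 and 17.5 CPM in WT M2. In miR-210 KO cells it was at 36.2, 31.2 and 47.1 CPM in M0 and at 24, 21.5 and 22.7 CPM in M2. The states did not overlap in either genotype. Thbd fell by 1 on the log2 scale in WT (SE 0.13, adjusted p = 2.8e-05) and by 0.75 in miR-210 KO cells (SE 0.14, adjusted p = 0.001).

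F13a1, the gene of the factor XIII A subunit, was at 72, 203 and 68 CPM in WT M0 and at 43.6, 38 and 50.5 CPM in WT M2. In miR-210 KO M0 it was at 138, 207 and 120 CPM and in miR-210 KO M2 at 51.1, 49.1 and 55.7 CPM. The M0 library numbered 2 was the highest of its group in both genotypes, at 2.99 and 1.73 times the lowest library of its group. F13a1 fell by 1.38 on the log2 scale in WT (SE 0.33, adjusted p = 0.0038) and by 1.58 in miR-210 KO cells (SE 0.17, adjusted p = 8.8e-06). Without the WT M0 library numbered 2, the decrease in WT was -0.67 on the log2 scale and still passed the test.

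The urokinase system moved in both directions. Plaur, the gene of the urokinase receptor, was at 19.3, 31.2 and 26.7 CPM in WT M0 and at 90, 86.4 and 101 CPM in WT M2. It was at 51.5, 38.7 and 59.6 CPM in miR-210 KO M0 and at 81.6, 87.6 and 88.2 CPM in miR-210 KO M2. Every M2 library was above every M0 library, and the miR-210 KO M0 libraries lay between WT M0 and M2. Plaur rose with IL-4 by 1.83 on the log2 scale in WT (SE 0.13, adjusted p = 6.5e-08) and by 0.78 in miR-210 KO cells (SE 0.13, adjusted p = 0.00038).

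Plau, the gene of urokinase itself, was at 107, 147 and 140 CPM in WT M0 and at 115, 99.5 and 119 CPM in WT M2, and these groups overlapped. It was at 194, 153 and 160 CPM in miR-210 KO M0 and at 101, 115 and 144 CPM in miR-210 KO M2, and these groups did not. The log2 difference was -0.23 in WT (SE 0.11, adjusted p = 0.094), and Plau fell by 0.49 in miR-210 KO cells (SE 0.13, adjusted p = 0.0088). The call in miR-210 KO cells was lost without the miR-210 KO M2 library numbered 1 (-0.38), and in WT a decrease was called without the WT M0 library numbered 1 (-0.36). Per length, Plau was between 7.31 and 8.59 times Plaur in WT M0 and between 1.79 and 2 times in WT M2. The same ratio in miR-210 KO cells was between 4.18 and 6.15 in M0 and between 1.92 and 2.54 in M2.

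Serpinb2, the gene of the urokinase inhibitor PAI-2, was at 6.73, 2.37 and 2.63 CPM in WT M0 and at 18.7, 18.6 and 22.5 CPM in WT M2. It was at 5.11, 3.42 and 5.47 CPM in miR-210 KO M0 and at 13.1, 17 and 15.4 CPM in miR-210 KO M2. Serpinb2 rose by 2.41 on the log2 scale in WT (SE 0.26, adjusted p = 4.3e-06) and by 1.71 in miR-210 KO cells (SE 0.19, adjusted p = 1.5e-05). The annotated span of Serpinb2 overlaps that of Serpinb10 on the same strand, with 0 exon bases shared between their canonical transcripts, so reads of other transcripts in the overlap could be assigned to either gene.

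Of the 9 genes, 7 were thus called between WT M2 and WT M0, where 35.4% of all tested genes were called. F3, F7, F10, Plaur and Serpinb2 were higher in M2 (18.4% of all tested genes were) and F13a1 and Thbd were lower (17% were). F3 and F7 passed the filter on low counts only through their M2 libraries, so only an increase could be called for them. Between miR-210 KO M2 and M0, 8 of the 9 were called against 28.4% of all tested genes, the same 5 higher (14.3% of all tested genes) and Plau, F13a1 and Thbd lower (14%). In WT the 5 genes that rose and the 2 that fell had no overlap between the states, as had 28.3% of all tested genes in the upward and 28.7% in the downward direction. In miR-210 KO cells the 5 and the 3 had none either (23.6% and 22.7% of all tested genes). The median log2 change of the 9 genes was 1.83 in WT and 0.78 in miR-210 KO cells, beside 0 within 0.01 over all genes tested. In both genotypes this median was the change of Plaur itself, so its difference between genotypes describes that gene.

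**Figure D2:**
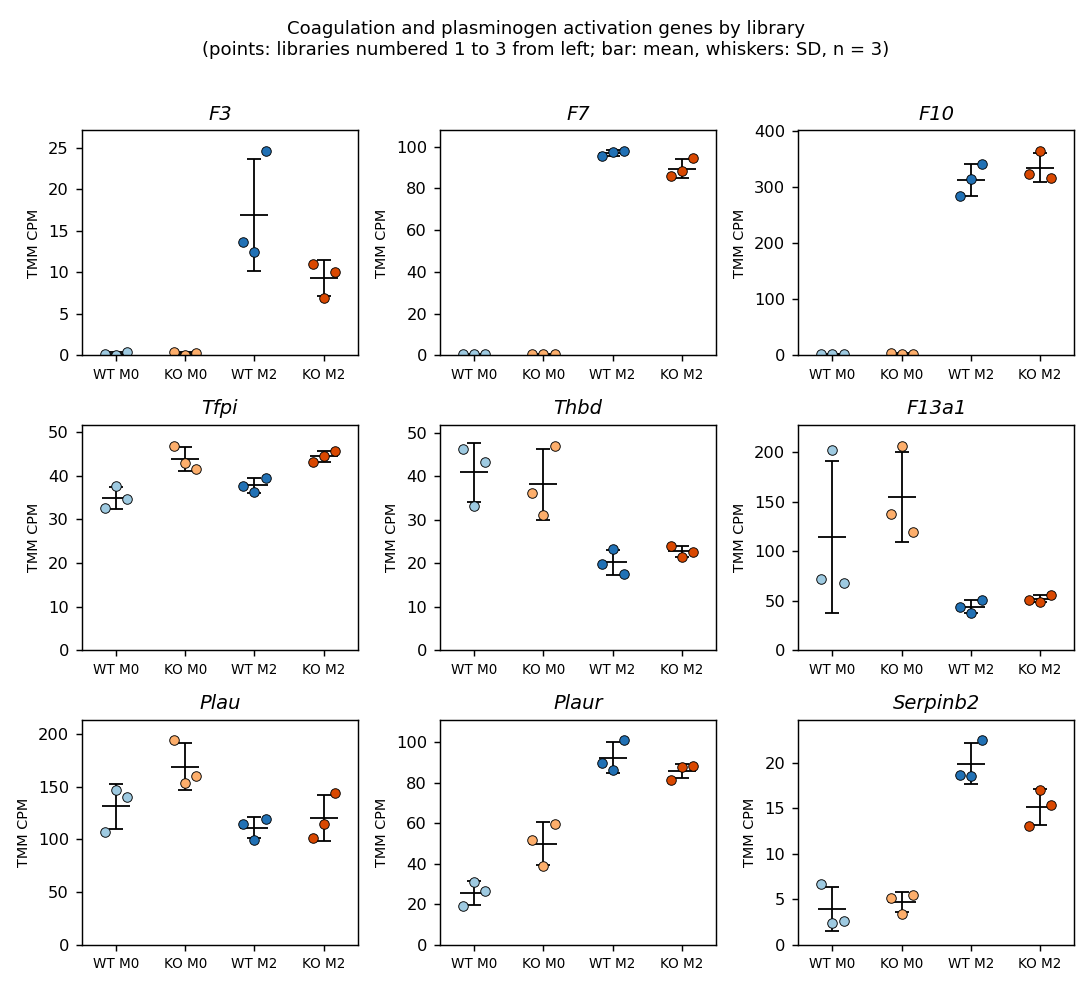
TMM-scaled CPM of each gene in the 12 libraries, by group (points are libraries, bars are means and whiskers SD, n = 3 a group). F3, F7, F10, Plaur and Serpinb2 were higher in every M2 library than in any M0 library, and F13a1 and Thbd were lower.

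**Figure D3:**
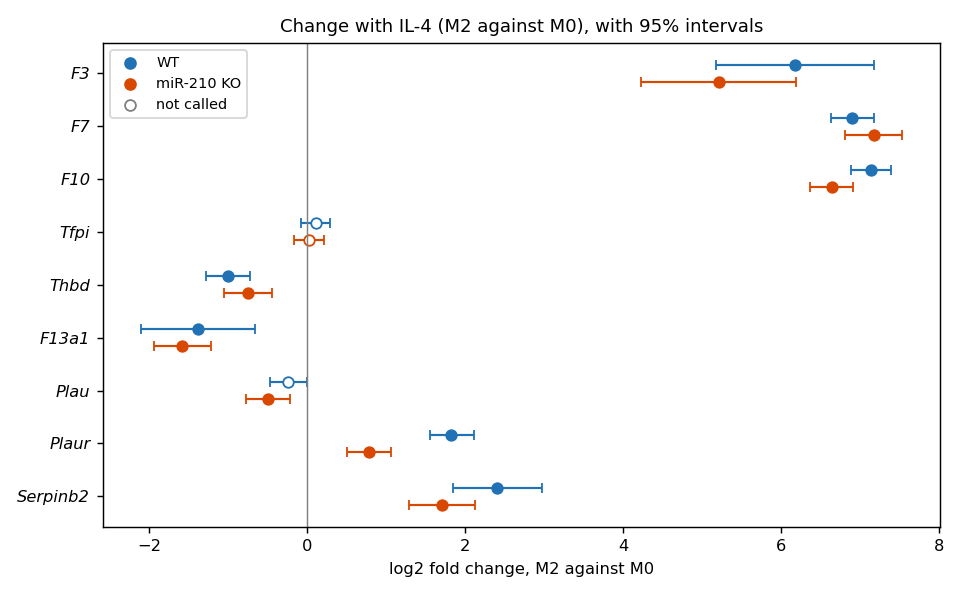
Log2 fold change of M2 against M0 for each gene in WT and miR-210 KO macrophages, with 95% intervals, where filled points passed the test. F3, F7 and F10 lay above 5, Tfpi lay at 0.11 and 0.02, and Plaur lay at 1.83 in WT and 0.78 in miR-210 KO cells.

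The proximal promoters of all 9 genes were examined for motifs of transcription factors known in macrophages. The AP-1 motif (TGANTCA, read on both strands) was present between 250 bases before and 50 bases after the start of F3, Serpinb2 and Plaur, which were 3 of the 9 genes, and in 7.15% of 21757 protein-coding windows of this length. These windows are shown because the same motif stood in 3 genes that rose with IL-4. They are read from GRCm39 at chr3:121516936-121517235 (F3), chr1:107438903-107439202 (Serpinb2) and chr7:24161625-24161924 (Plaur), all on the plus strand, with matches to any motif searched in capitals.
F3: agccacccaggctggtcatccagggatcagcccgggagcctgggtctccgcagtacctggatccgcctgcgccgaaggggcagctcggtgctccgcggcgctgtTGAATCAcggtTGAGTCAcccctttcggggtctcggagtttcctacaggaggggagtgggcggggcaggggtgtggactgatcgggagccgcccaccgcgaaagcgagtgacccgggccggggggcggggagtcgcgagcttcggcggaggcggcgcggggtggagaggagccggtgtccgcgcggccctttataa
Serpinb2: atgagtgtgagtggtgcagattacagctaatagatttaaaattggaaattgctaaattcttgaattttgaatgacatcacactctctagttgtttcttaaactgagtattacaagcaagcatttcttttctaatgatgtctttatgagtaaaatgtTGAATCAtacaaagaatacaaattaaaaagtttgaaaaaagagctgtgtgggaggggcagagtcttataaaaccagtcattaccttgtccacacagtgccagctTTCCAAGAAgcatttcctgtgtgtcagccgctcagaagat
Plaur: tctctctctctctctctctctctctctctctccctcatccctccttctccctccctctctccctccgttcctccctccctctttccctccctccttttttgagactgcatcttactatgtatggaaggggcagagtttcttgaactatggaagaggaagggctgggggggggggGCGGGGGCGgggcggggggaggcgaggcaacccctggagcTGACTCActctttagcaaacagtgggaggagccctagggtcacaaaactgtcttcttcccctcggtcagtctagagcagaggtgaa
F3 held 2 AP-1 matches (TGAATCA and TGAGTCA), which began 146 and 135 bases before the start. Serpinb2 held an AP-1 match (TGAATCA) 94 bases before the start and a match to the STAT6 motif (TTCCAAGAA) that began at base 10 after it. The STAT6 motif (TTCNNNGAA or TTCNNNNGAA), named for the factor that IL-4 activates, occurred in 14.9% of all windows and in 1 of the 9. Plaur held an AP-1 match (TGACTCA) 36 bases before the start and the EGR1 motif (GCGNGGGCG), which occurred in 6.22% of all windows and in 1 of the 9. The NF-kB motif occurred in 8.97% of windows and in 0 of the 9. The windows of F7 and F10 held 0 matches to these 4 motifs. The matches describe letters in these windows and were not tested as sites.

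Other genes of coagulation and of the plasminogen system were taken from textbook lists of 34 and 15 genes. Of these 49 genes, 12 had 0 counts in all 12 libraries, among them Plg (plasminogen), the fibrinogen chains Fga, Fgb and Fgg, and Proc (protein C). A count of 0 allows up to 0.295 CPM before scaling in the deepest library and 0.378 in the shallowest, for counting error only. In WT, 19 of the 49 had enough counts to be tested between M2 and M0, of which 9 rose and 0 fell. Over all tested genes, 18.4% were called higher and 17% lower. Vwf, the carrier of factor VIII, rose by 4.19 on the log2 scale (SE 0.1, adjusted p = 3.7e-12), from a mean of 8.46 ± 1.63 (SD, n = 3) to 153 ± 2.07 CPM. F5, the cofactor of factor Xa, rose by 2.35 (SE 0.17, adjusted p = 1.1e-07), from 6.21 ± 2 to 31 ± 4.22 CPM. Thus the cofactor of factor Xa rose beside F10, but by less on the log2 scale.

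Among the inhibitors, Tfpi2 rose by 4.92 in WT (SE 0.57, adjusted p = 9e-06), with 1, 1 and 0 counts at rest and 29, 18 and 21 after IL-4. It passed the filter on low counts only through its M2 libraries, so only an increase could be called. Pros1, the gene of protein S, rose by 0.8 (SE 0.1, adjusted p = 1.4e-05). Of the genes that hold plasminogen at the cell surface, Anxa2 rose by 1.54 (SE 0.06, adjusted p = 3.1e-10) and its partner S100a10 by 0.74 (SE 0.07, adjusted p = 9.4e-07). Plgrkt, the gene of another plasminogen receptor, was not called in WT (0.02, SE 0.08, adjusted p = 0.9) or in miR-210 KO cells (-0.0017, adjusted p = 0.99). Eno1, Ano6 (a phospholipid scramblase) and Ggcx (the carboxylase of the vitamin K-dependent factors) rose by 0.52, 0.47 and 0.29.

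In miR-210 KO cells 18 of the 49 genes were tested between M2 and M0, of which 6 rose and 1 fell. Vwf, F5, Anxa2, Pros1, S100a10 and Ano6 rose by 3.96, 2.28, 1.41, 0.81, 0.64 and 0.63 on the log2 scale. Procr, the gene of the protein C receptor, fell by 1.54 (SE 0.18, adjusted p = 1.7e-05). Eno1 (0.23, adjusted p = 0.028) was higher in all M2 libraries, but its change was too small for a call. Ggcx (0.24, adjusted p = 0.18) was also higher in all M2 libraries and was not called. Tfpi2 did not pass the filter on low counts, with 0, 2 and 0 counts at rest and 7, 23 and 14 after IL-4. The smaller number of calls than in WT thus does not show that these genes failed to rise. The median log2 change of the tested genes was 0.29 in WT and 0.23 in miR-210 KO cells, below those of the 9 genes. This is a description only, since the 9 genes were picked with these comparisons already seen.

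**Figure D4:**
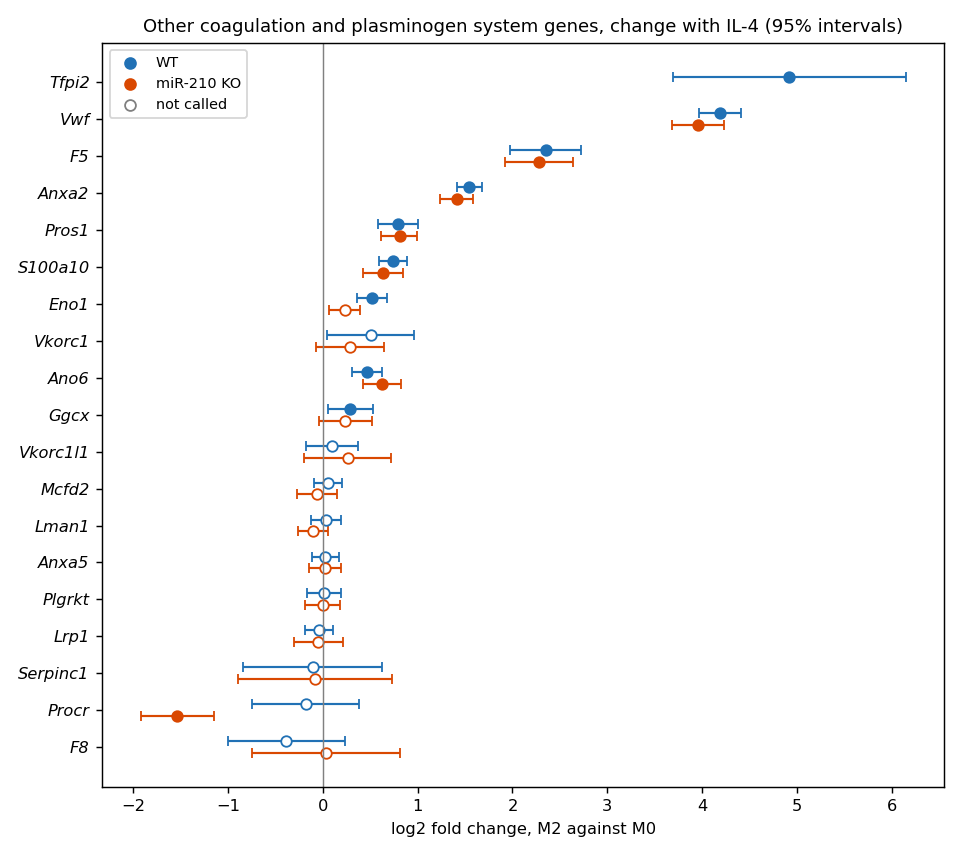
Log2 fold change of M2 against M0 for the other coagulation and plasminogen system genes with enough counts, in WT and miR-210 KO macrophages, with 95% intervals and filled points where the test was passed. Tfpi2 (tested in WT), Vwf and F5 had the largest increases, and Procr in miR-210 KO cells had the largest decrease.

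The comparison of genotypes addressed whether miR-210 alters these transcripts at rest or after IL-4. In M0, F3 and F7 did not pass the filter on low counts. The ratio of summed normalized counts of miR-210 KO M0 to WT M0 was 1.08 for F3 (95% counting interval 0.311 to 3.9) and 0.759 for F7 (0.384 to 1.48), so differences inside these intervals were not detectable at this depth. Of the other 7 genes, 0 were called by edgeR, where 0.461% of all tested genes were called. An unadjusted p under 0.05 was found for 4 of them (10% of all tested genes), and the DESeq2 Wald test called 1 (1.47% of all genes it tested), which was Plaur.

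Plaur was higher in every miR-210 KO M0 library than in any WT M0 library (values above), with a log2 difference of 0.94 (SE 0.18) and an adjusted p of 0.052. It was called when the low-count filter was dropped and in the fit of all 12 libraries. Calls over all genes also rose in these fits, as given at the end. Of the 6 fits with a library left out, 2 called it. These were the fits without the M0 library numbered 2 of either genotype (1.12 without that of WT, 1.1 without that of miR-210 KO). Plaur was not called with other normalizations (RLE, upper quartile) or a stricter filter, and its adjusted p reached 0.23 among the alternatives. F10, Plau and Tfpi were also higher in all 3 miR-210 KO M0 libraries than in WT M0, with log2 differences of 0.59 (SE 0.25, adjusted p = 0.44), 0.36 (SE 0.13, adjusted p = 0.33) and 0.32 (SE 0.09, adjusted p = 0.22). Groups in that order and without overlap were found for 7.13% of all tested genes. F13a1 (0.43, SE 0.35, adjusted p = 0.75), Serpinb2 (0.29, SE 0.37, adjusted p = 0.85) and Thbd (-0.1, SE 0.16, adjusted p = 0.9) overlapped between genotypes. The value of F13a1 depended on a single library, since without the WT M0 library numbered 2 it was 1.16 and called. That of Serpinb2 was 0.89 without the WT M0 library numbered 1 and 0.04 without the WT M0 library numbered 2, and it was not called in either.

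Of the other pathway genes, 0 of 19 tested were called in M0 by edgeR or by the DESeq2 Wald test, and 2 had an unadjusted p under 0.05. They were Procr, with a log2 difference of 0.65 (SE 0.26, adjusted p = 0.4), and Eno1, with 0.2 (SE 0.08, adjusted p = 0.44).

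In M2, 0 of the 9 genes were called by edgeR, where 0.98% of all tested genes were called. An unadjusted p under 0.05 was found for 4 of them (10.7% of all tested genes), and the DESeq2 Wald test called 1 (0.838% of all genes it tested). That gene was F3, at 13.6, 12.4 and 24.6 CPM in WT M2 and at 11, 6.89 and 10 CPM in miR-210 KO M2. All miR-210 KO libraries were below all WT libraries, with a log2 difference of -0.85 (SE 0.23, adjusted p = 0.11). The WT M2 library numbered 3 was 1.98 times the lowest of its group, and without it the difference was -0.49. Without the WT M2 library numbered 2 it was -1.05 and called, and F3 was also called when the low-count filter was dropped. It was not called in the other fits with a library left out, with other normalizations or with a stricter filter.

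F7 and Serpinb2 were also lower in all 3 miR-210 KO M2 libraries than in WT M2, by log2 differences of -0.11 (SE 0.06, adjusted p = 0.59) and -0.38 (SE 0.12, adjusted p = 0.21). Groups in that order and without overlap were found for 8.52% of all tested genes. Tfpi was above WT in all 3 libraries, as in M0, with a log2 difference of 0.24 (SE 0.08, adjusted p = 0.2), an order found for 7.52% of all tested genes. F13a1 (0.25, adjusted p = 0.33), Thbd (0.17, adjusted p = 0.65), Plau (0.11, adjusted p = 0.79), F10 (0.1, adjusted p = 0.66) and Plaur (-0.1, adjusted p = 0.69) overlapped. The interval for Plaur in M2, -0.25 to 0.05, did not reach the difference seen in M0. Of the other pathway genes, 0 of 19 were called in M2 by edgeR, and 3 had an unadjusted p under 0.05. They were Procr, with a log2 difference of -0.69 (SE 0.18, adjusted p = 0.098) and all miR-210 KO libraries below WT, Ano6 with 0.14 (SE 0.06, adjusted p = 0.44) and Mcfd2 with 0.12 (SE 0.05, adjusted p = 0.44).

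**Figure D5:**
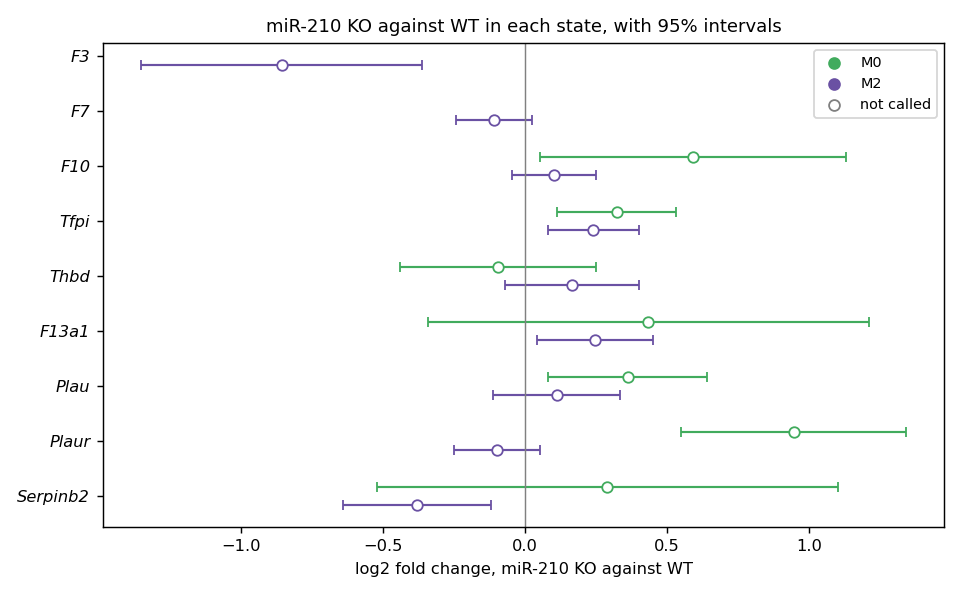
Log2 fold change of miR-210 KO against WT macrophages for each gene in M0 and M2, with 95% intervals, where open points did not pass the test. Plaur in M0 (0.94) and F3 in M2 (-0.85) lay farthest from 0, and F3 and F7 did not pass the filter on low counts in M0.

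Whether the change with IL-4 differed between genotypes was tested as an interaction over all 12 libraries. By edgeR 0 of 14825 genes were called (0%), among them 0 of the 9, of which 2 had an unadjusted p under 0.05 (8.95% of all tested genes had). The DESeq2 Wald test called 83 genes (0.804%), 1 of the 9 among them, which was Plaur. The increase of Plaur was smaller in miR-210 KO than in WT cells by -1.05 on the log2 scale (SE 0.2, 95% interval -1.48 to -0.61), the 10th smallest p of all genes, with an adjusted p of 0.095. Of the 12 fits with a library left out, 2 called it, those without the M0 library numbered 2 of either genotype. Other normalizations and a stricter filter did not call it. The interaction of F10 was -0.49 (SE 0.22, adjusted p = 0.52) and that of Serpinb2 was -0.69 (SE 0.38, adjusted p = 0.62). The intervals of F3 (-3.48 to 1.53) and F13a1 (-1.13 to 0.75) were wide, and that of Tfpi (-0.33 to 0.15) was the narrowest of the 9. Of the other pathway genes, 0 of 20 were called and 2 had an unadjusted p under 0.05. They were Procr (-1.35, SE 0.38, adjusted p = 0.23) and Eno1 (-0.28, SE 0.1, adjusted p = 0.38).

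For each gene the protein-coding genes with the most alike pattern were found by Pearson's r of log2(CPM + 1) over the 12 libraries among 11193 genes. These values are descriptions, since the 12 points fall into 4 groups, and r of the deviations from the group means is given beside them. Each partner was picked for the highest r over these same libraries, so a high r of the deviations is partly due to that choice. F7 and F10 were most like Chil3 (0.9994, deviations 0.245) and Tmem26 (0.9993, deviations 0.192), so that the likeness lay mainly between groups. F3 was most like Phgdh (0.9978), and here r of the deviations was high too (0.962). The same held for Serpinb2 and Sirt1 (0.988, deviations 0.926), for Plau and Slc11a2 (0.9261, deviations 0.924) and for Thbd and Tbc1d9 (0.9672, deviations 0.906). F13a1 was most like Epm2a (0.9615, deviations 0.869), Plaur was most like H4c1 (0.9763, deviations 0.739) and Tfpi was most like Ide (0.9132, deviations 0.66).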

How the data were processed

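The count values that the authors deposited were made from stranded paired-end reads of RNA depleted of ribosomal RNA. They trimmed the reads, dropped duplicates, ran STAR against GRCm39 and assigned reads to genes with featureCounts. The 4 tables hold 56941 genes each, not normalized, with library totals between 7930525 and 10167695. Dropping duplicates can compress abundant and short genes. The authors also deposited these counts divided by size factors, a signal without genes under 5 counts over a pair of groups, which served here only to check levels. Columns were assigned by their group names, and the numbers 1 to 3 are not tied to samples.

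Of the identifiers, 56323 matched GENCODE genes of GRCm39, all 9 genes studied among them. Tests were run on the 6 libraries of a pair, or on 12 for the interaction, by edgeR 4.0.16 (quasi-likelihood, TMM, filterByExpr by group) under R 4.3.3. P values were adjusted after Benjamini-Hochberg (BH) over all genes tested, and "adjusted p" means this value throughout. Calls needed an adjusted p below 0.05 and, except for the interaction, an absolute log2 fold change above 0.263. Calls of M2 against M0 were limited to protein-coding genes with a mean normalized count above 10. CPM are counts scaled by TMM over 12 libraries, and CPM per kb are these divided by the kilobases of merged exons. Counting intervals are exact, at 95%, and cover counting error only. The scripts were tested on simulated data.

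The members, gene lists and motifs were chosen with earlier results of these data known. The 9 genes are named in every comparison, of the other pathway genes those called, and for each of the 9 genes the most alike gene. Procr, Eno1, Ano6 and Mcfd2 in comparisons of genotypes were named after their values were seen. So were Plgrkt in the change with IL-4, and Tfpi2, Eno1 and Ggcx in that of miR-210 KO cells. Of the gene lists, 1 pathway gene and 1 marker are not reported here. Alternatives were the DESeq2 1.42.0 Wald test, other normalizations, filters and fold limits, a fit of 12 libraries, the library number as a block, and each library left out.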

Additional observations from a re-analysis of the deposited data

How the results depend on the processing

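Between M2 and M0, a fold limit of 1 on the log2 scale lowered the count of the 9 genes called in miR-210 KO cells from 8 to 5 and that of the other pathway genes from 9 to 4 in WT and from 7 to 4 in miR-210 KO cells. The fold limit lowered the calls over all genes from 5055 to 1446 in WT and from 4065 to 1292 in miR-210 KO cells. For miR-210 KO M0 against WT M0, 0 of the 9 genes were called, but 3 without the filter on low counts (Plaur, Plau and F13a1), and 1 each, Plaur, in the fit of 12 libraries, with the replicate block and by the DESeq2 Wald test. The other pathway genes called there went from 0 to 1 without the filter and with the replicate block. Over all genes, 65 calls became 532 without the filter, 248 in the fit of 12 libraries, 284 with the block, 207 by DESeq2 and 27 at a fold limit of 1. For miR-210 KO M2 against WT M2, 0 of the 9 genes became 1, which was F3, without the filter, with the replicate block and by DESeq2, and 0 of the other pathway genes became 1 without the filter and with the block. Over all genes, 137 calls became 360 without the filter, 60 in the fit of 12 libraries, 289 with the block and 40 at a fold limit of 1. For the interaction, 0 of the 9 genes became 1 without the filter and by DESeq2, 0 of the other pathway genes became 1 without the filter, and 0 of all genes became 341 without the filter and 83 by DESeq2. The causes were not tested.

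With each library left out in turn, the count of the 9 genes called was between 0 and 2 in M0, between 0 and 1 in M2 and between 0 and 1 for the interaction, and that of the other pathway genes was 0 in M0 and between 0 and 1 in M2. The M0 libraries numbered 2 of both genotypes were also left out together. This alternative was chosen after seeing the data and after the values of F13a1. Then 2 of the 9 genes were called in M0 and 2 in the interaction, F13a1 and Plaur in both. Of the other pathway genes, 1 was called in the interaction. Calls over all genes are not given beside these counts or those with 1 library left out. Whether calls rose over all genes can thus not be read from them. Log2 differences that changed sign when a library was left out were those of Tfpi in miR-210 KO M2 against M0 (between -0.031 and 0.071), of Thbd in M0 (-0.28 to 0.037), of Plau in M2 (-0.040 to 0.22) and of F13a1 in the interaction (-0.92 to 0.075), and 0 of them were called in the fits with all libraries. The library numbers are not in the labels as pairs, so the block is not a known pairing. Deviations of libraries with the same number correlated between -0.346 and 0.412. Between WT M0 and miR-210 KO M0 they correlated at 0.135, 0.412 and 0.0252 for the numbers 1, 2 and 3. Whether libraries of the same number were handled together was not tested. With 3 libraries a group and at most 8 counts of F3 or F7 in an M0 library, differences of these genes at rest were limited by depth.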
